A study of Homo sapiens with 36 samples.

Results

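The transcriptional response to lipopolysaccharide (LPS) was examined in NR4A2-depleted THP-1 monocytes held in hypercapnia. THP-1 is a human monocytic leukaemia line. The libraries were chosen by their labels alone: 3 of shNR4A2 cells at 10% CO2 (the basal state) and 3 of shNR4A2 cells at 10% CO2 + LPS, which makes 6 of the 36 libraries of the series. The study as a whole asked how cells depleted of NR4A2 or NR4A3 respond to elevated CO2. Every cell in these 6 libraries had been transduced with lentiviral particles carrying an NR4A2-targeting shRNA and had spent 4 h in buffered medium at 10% CO2, so hairpin and hypercapnia were common to both groups. The stimulated cells received 2.5 µg/ml LPS for the last 2 h. The comparison therefore asks what LPS changed in cells with the NR4A2 hairpin at high CO2. For reference, the same response was taken from shNR4A2 cells at 5% CO2 and from cells with a non-target hairpin (shNT) at 10% CO2, each with 3 libraries without and 3 with LPS. Each hairpin is represented by 1 stable line. The study describes the 3 libraries of a condition as individual experiments. Whether a line was 1 clone is not given in the sources used here, and the p-values measure the spread between libraries of 1 line.

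LPS is a component of the outer membrane of Gram-negative bacteria. Monocytes sense it with TLR4, which works together with MD-2 (gene LY96) and CD14. TLR4 signals from the cell surface through MyD88 and from endosomes through TRIF (gene TICAM1). The MyD88 branch activates NF-κB and MAP kinases within minutes, and the transcripts that follow encode cytokines, chemokines and, in the same wave, the proteins that switch the pathway off again. NR4A1, NR4A2 and NR4A3 are orphan nuclear receptors of the NR4A family and are themselves early-response genes. Hypercapnia, an elevated level of CO2, is studied for its effects on this kind of inflammatory gene expression.

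The 6 libraries held 17092108 to 23203740 counts. Levels are given below as length-scaled transcript shares (TPM), which divide counts by gene length and sum to the same total in each library. Fold changes are given on the log2 scale after TMM scaling, LPS against basal, with their standard error (SE). A gene is called when edgeR's quasi-likelihood test gave a Benjamini-Hochberg adjusted p under 0.05 over all 17720 genes tested. A permutation of 3 against 3 libraries cannot give a p below 0.1, so no single-gene permutation test was used. In bulk RNA, fewer cells of a type and less RNA per cell cannot be told apart. The targeted gene NR4A2 (ENSG00000153234, chr2:156324432-156342348, GRCh38) went with the labels. At 10% CO2 without LPS its level in shNR4A2 cells was 50.0% of that in shNT cells (log2 difference −0.999, SE 0.23, adjusted p = 0.007). With LPS it was 31.6% (log2 difference −1.66, SE 0.14, adjusted p = 1.31e-07). The knockdown was thus partial in both states. Of all genes, 9.91% differed between the 2 lines without LPS and 15.9% with LPS.

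Of the 16 monocyte markers checked, all had counts in every library. Levels ranged from the granule enzyme MPO, at 1.80 to 4.77 TPM, to the granule protease CTSG, at 1353 to 2922 TPM. Markers of other cell types summed to far less than the 6967 to 7485 TPM (basal) and 5126 to 6393 TPM (LPS) of the monocyte list. NK cell markers reached 56.0 to 66.4 and 42.3 to 69.2 TPM, most of it NKG7, and B cell markers 14.5 to 15.97 and 5.85 to 10.8 TPM. Epithelial and erythroid markers stayed under 5 TPM in sum. The 8 T cell markers summed to 0.782 to 1.84 TPM in the basal libraries and 0.604 to 1.62 TPM with LPS, and HBB, HBA1, HBA2 and HBG1 were at 0 in all 6 libraries. PECAM1 alone accounted for most of the fibroblast and endothelial list, at 150 to 247 TPM. DCN, of the same list, had 0 counts in the basal libraries and 11, 16 and 13 with LPS. Across the 7 marker lists, 3 tested genes were called higher (SPI1, FCGR1A and DCN) and 4 lower (CEBPA, CSF1R, CD33 and CD79B). The call of FCGR1A was lost when libraries were scaled by their size alone (log2 fold change 0.04, adjusted p = 0.779). The part of the marker genes in the results below was not tested.

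LPS moved a large part of the transcriptome. Of 17720 genes tested, 6202 (35.0%) were called, 2930 (16.5%) higher and 3272 (18.5%) lower. These shares are the background for the counts of list members given below. With a change of at least 2-fold required as well, 1282 genes (7.23%) were higher and 947 (5.34%) lower. The large changes were nearly all increases: 715 genes rose and 170 fell by at least 4-fold, 299 rose and 5 fell by at least 16-fold, and 118 rose and 0 fell by at least 64-fold. The balance of the smaller changes depended on the scaling. With library size alone the median over all genes moved by −0.25, the calls became 1731 higher and 5997 lower, and those of at least 2-fold became 1056 and 1662. All changes below are relative to the TMM scale, on which the median gene was at −0.01. Of the 6202 called genes, 97.6% had 6 libraries that did not overlap in scaled CPM, against 47.4% of all genes tested.

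**Figure D1:**
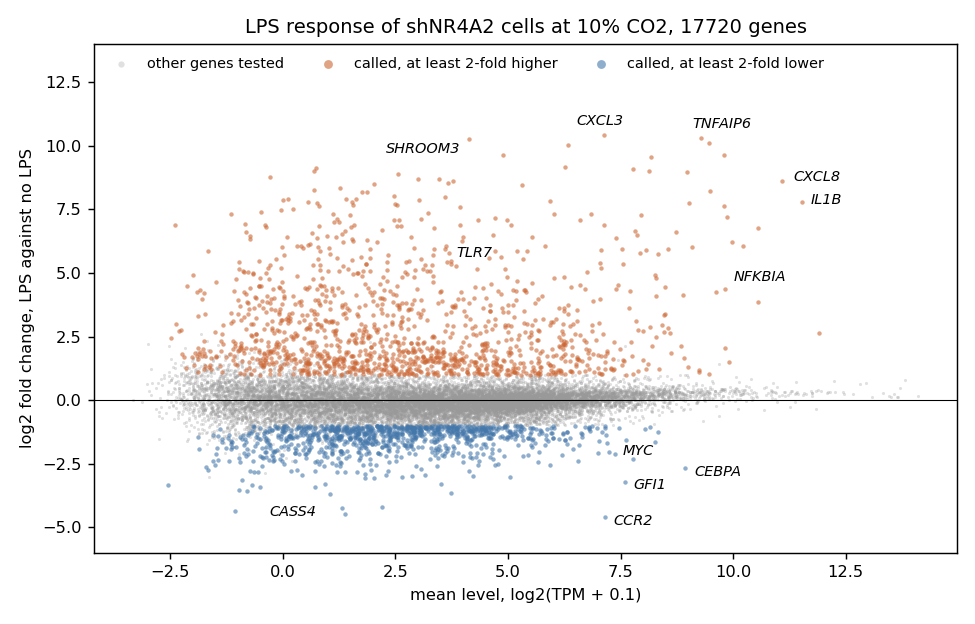
Each point is 1 of the 17720 genes tested; the horizontal axis is the mean level as log2(TPM + 0.1) and the vertical axis the log2 fold change with LPS. Orange points are the 1282 genes called and at least 2-fold higher, blue points the 947 called and at least 2-fold lower. Among called, non-overlapping genes of at least 5 CPM, the upper side reaches 10.41 (CXCL3) and the lower side −4.60 (CCR2).

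A small number of genes came to fill a visible share of the mRNA. The genes called and at least 4-fold higher held 0.616% to 0.667% of all TPM in the basal libraries and 7.75% to 8.84% with LPS. The cytokine and chemokine lists, summed, held 0.156% to 0.169% and 2.45% to 2.99%. Among called genes, IL1B, the ferritin genes FTL and FTH1, CXCL8 and PTX3 gained most TPM. CA2 lost more TPM than any other called gene. CA2, a cytosolic carbonic anhydrase, which interconverts CO2 and bicarbonate, stood at 4620, 4605 and 4096 TPM in the basal libraries and at 3052, 2887 and 2572 TPM with LPS. The groups did not overlap, and the change on the TMM scale was modest (log2 fold change −0.36, SE 0.12, adjusted p = 0.0276). TPM fell further than the scaled values because it is a share: RELA and FCGR1A had near-equal TPM in both groups and log2 fold changes of 0.24 and 0.28.

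The CXC chemokines, which attract neutrophils and lymphocytes, were the list with the highest median. Of 11 tested members 9 rose and 0 fell, with a median log2 fold change of 7.10, against −0.01 over all genes. CXCL8 (ENSG00000169429, chr4:73740506-73743716), the main neutrophil attractant of human monocytes, was at 14.1, 12.1 and 14.1 TPM in the basal libraries and at 5287, 3983 and 3786 TPM with LPS. That was a log2 fold change of 8.63 (SE 0.22, adjusted p = 1.21e-12). CXCL1, CXCL2 and CXCL3 are close paralogs on the same stretch of chromosome 4 and bind the same receptor as CXCL8. CXCL1 was at 2.96, 2.33 and 2.07 TPM without and 1138, 940 and 924 TPM with LPS. CXCL2 went from 0.808, 1.76 and 1.39 TPM to 644, 511 and 525 TPM. CXCL3 had 9 counts in all in the basal state, 0 of them in replicate 2, and 317, 266 and 252 TPM with LPS (log2 fold change 10.41, SE 0.29). CXCL10, a ligand of CXCR3 that is classed with the interferon-induced chemokines, reached 401, 686 and 640 TPM from 1.03, 0.801 and 0.887 TPM (log2 fold change 9.55, SE 0.24). No library of either group came near the other group in these 5 genes.

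The promoters of these chemokines are shown because several hold matches to a consensus of the κB site, to which NF-κB binds. The letters searched were GGGRNNYYCC, where R is A or G, Y is C or T and N is any base. The sequences are the 250 bases before the RefSeq start of each gene (GRCh38.p14), written 5′ to 3′ on the gene's strand. Capitals mark every κB match, and positions are counted back from the start. The consensus was searched on both strands. It was present in 9.57% of the 27305 promoters in the RefSeq table (1 start a gene), and in 6 of the 10 CXC list members with a promoter there. The table was not limited to genes tested here. List members were counted only among the 11155 tested protein-coding genes matched to it by symbol, so such shares cover unlike sets. A match describes the letters only. In CXCL1, CXCL2 and CXCL3 the capitals are a run that matches at 2 overlapping positions, 1 base apart, and it was identical in the 3 paralogs.
CXCL1 (chr4:73869143-73869392, + strand, first κB bases at −79 and −78): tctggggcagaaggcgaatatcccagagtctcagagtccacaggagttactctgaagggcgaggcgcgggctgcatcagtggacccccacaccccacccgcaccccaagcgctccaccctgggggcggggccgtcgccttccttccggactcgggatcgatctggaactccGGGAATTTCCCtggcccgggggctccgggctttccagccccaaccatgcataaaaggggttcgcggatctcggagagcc
CXCL2 (chr4:74099196-74099445, − strand, first κB bases at −78 and −77): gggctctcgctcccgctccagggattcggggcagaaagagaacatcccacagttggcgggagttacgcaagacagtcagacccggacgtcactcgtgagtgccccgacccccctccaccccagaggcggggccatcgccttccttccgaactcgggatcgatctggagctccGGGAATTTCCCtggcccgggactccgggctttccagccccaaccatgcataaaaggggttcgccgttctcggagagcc
CXCL3 (chr4:74038690-74038939, − strand, first κB bases at −79 and −78): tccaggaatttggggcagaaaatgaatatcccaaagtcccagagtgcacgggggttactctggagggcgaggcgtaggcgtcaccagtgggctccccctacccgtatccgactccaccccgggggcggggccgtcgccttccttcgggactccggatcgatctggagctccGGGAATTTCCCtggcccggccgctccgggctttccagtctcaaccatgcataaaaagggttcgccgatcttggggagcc
CXCL10 (chr4:76023498-76023747, − strand, first κB bases at −177 and −122): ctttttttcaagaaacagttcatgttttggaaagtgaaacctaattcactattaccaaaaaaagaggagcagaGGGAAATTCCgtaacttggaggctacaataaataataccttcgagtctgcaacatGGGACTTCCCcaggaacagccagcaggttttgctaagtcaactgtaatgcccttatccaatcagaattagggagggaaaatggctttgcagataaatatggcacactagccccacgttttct

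**Figure D2:**
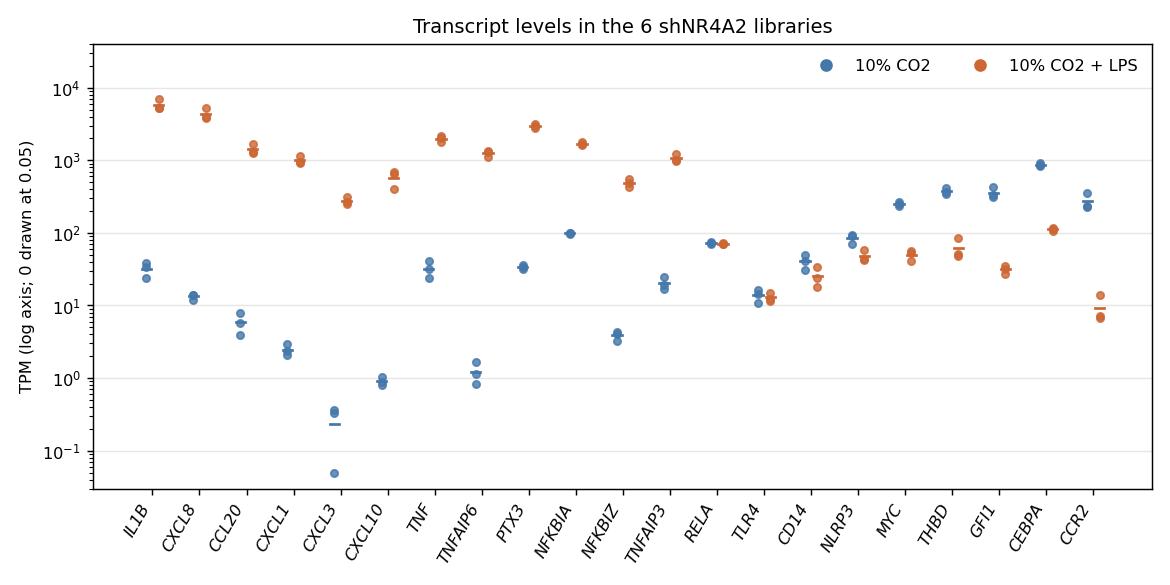
Points are TPM in the 3 basal (blue) and 3 LPS-stimulated (orange) shNR4A2 libraries at 10% CO2 on a log axis, and bars are group means; the 0 of CXCL3 is drawn at 0.05. From IL1B to TNFAIP3 every LPS library lies above every basal library, RELA, TLR4 and CD14 are not called, and MYC, THBD, GFI1, CEBPA and CCR2 lie lower in all 3 LPS libraries.

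The CC chemokines, which attract monocytes, T cells and dendritic cells, rose in 9 of 13 tested members and fell in 1 (median 5.33). CCL4 went from 1.99, 1.95 and 0.880 TPM to 1691, 1280 and 1287 TPM (log2 fold change 10.12, SE 0.27). CCL3 went from 6.49, 5.17 and 5.88 TPM to 1168, 963 and 949 TPM (7.74, SE 0.18). CCL4L2 is a near-identical copy of CCL4, so the division of reads between these 2 genes (9.64 for CCL4L2) is uncertain. CCL20, the ligand of CCR6, reached 1702, 1256 and 1314 TPM from 7.98, 3.93 and 5.77 TPM (8.21, SE 0.27). CCL5 began high, at 505 to 543 TPM, and reached 856 to 942 TPM, the smallest called rise of the list (1.04, SE 0.10). CCL28, an epithelial chemokine, was the member that fell (−1.06, SE 0.13).

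Receptor genes moved in both directions. Of 17 chemokine and chemoattractant receptors tested, 9 fell and 5 rose, with a median of −1.16, the lowest of the functional lists. CCR2 (ENSG00000121807, chr3:46353734-46360928), the receptor by which monocytes follow CCL2, stood at 357, 228 and 236 TPM in the basal libraries and at 13.9, 7.18 and 6.77 TPM with LPS. This was the largest fall among called, non-overlapping genes with a mean of at least 5 CPM (log2 fold change −4.60, SE 0.43, adjusted p = 0.000512). CCR1 fell from 136.7, 94.1 and 89.7 TPM to 17.5, 14.7 and 13.5 TPM (−2.53, SE 0.21). In both receptors all LPS libraries lay below all basal libraries. Those that rose included C3AR1, the receptor for complement C3a, from 12.3, 12.6 and 15.8 TPM to 135.7, 132.3 and 146.5 TPM (3.62, SE 0.13), the atypical receptor CCRL2 (3.59, SE 0.30) and CCR7, which guides cells to lymph nodes (3.41, SE 0.47).

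**Figure D3:**
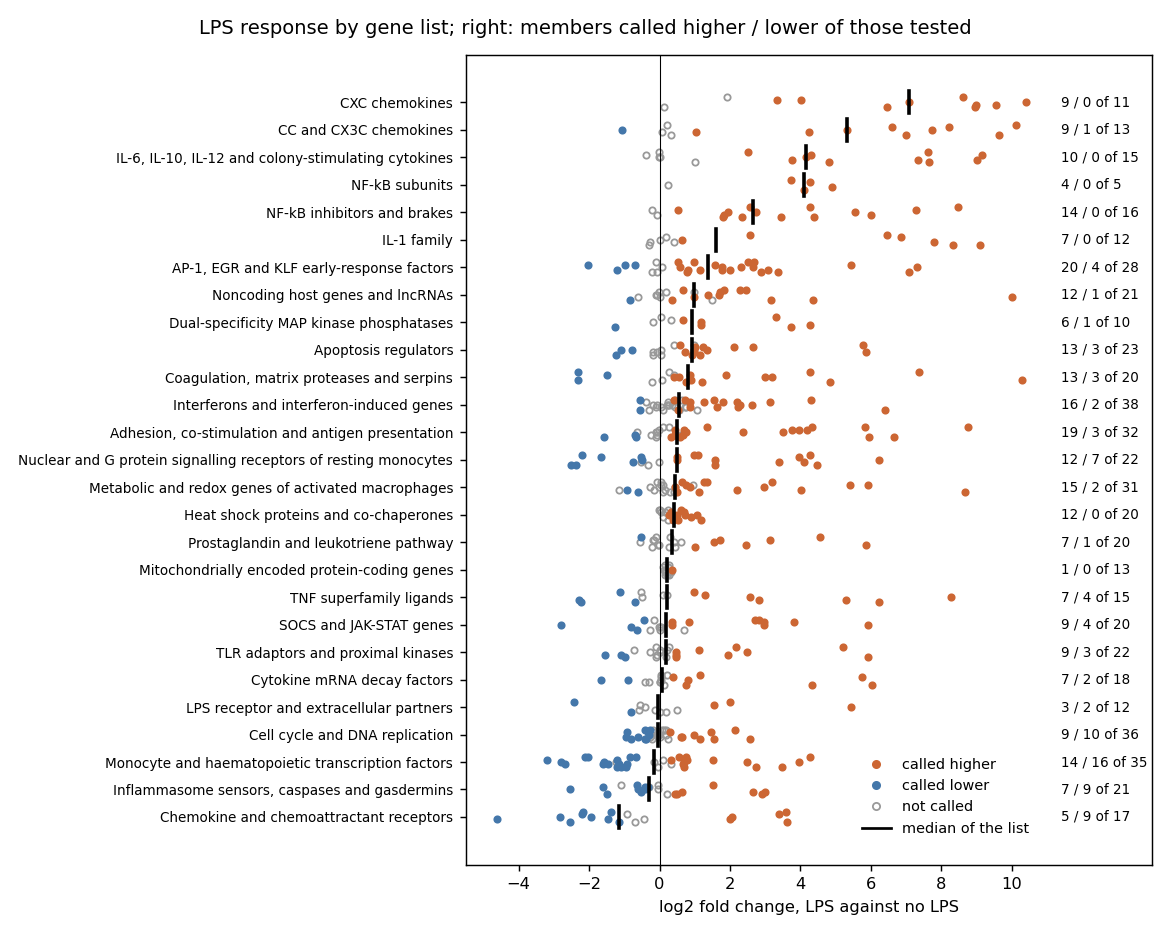
Each row is 1 gene list and each point 1 tested member, placed by its log2 fold change with LPS; filled orange and blue points are called higher and lower, open grey points are not called, and black bars are list medians. The CXC chemokines have the highest median (7.10) and the chemoattractant receptors the lowest (−1.16).

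Genes of the cytokine lists also rose. Of 12 IL-1 family genes tested, 7 rose and 0 fell (median 1.61). IL1B (ENSG00000125538, chr2:112829751-112836903), the fever-inducing cytokine that caspase-1 matures, was at 38.2, 23.8 and 33.7 TPM without and 7071, 5320 and 5197 TPM with LPS (7.80, SE 0.28, adjusted p = 3.63e-09). It gained more TPM than any other called gene. IL1A went from 0.856, 0.709 and 1.26 TPM to 554, 375 and 376 TPM (9.09, SE 0.30). IL36G had 0 counts in the 3 basal libraries and 110 in the 3 with LPS, at least 43.7-fold higher against a floor of 3 counts over the group. IL1RN, the natural antagonist of the IL-1 receptor, rose far less (0.65, SE 0.14, adjusted p = 0.00199).

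Of 15 genes of the IL-6, IL-10, IL-12 and colony-stimulating list, 10 rose and 0 fell (median 4.16). IL12B, the p40 subunit shared by IL-12 and IL-23, reached 157.5, 165 and 139.3 TPM from 0.146, 0.273 and 0.486 TPM (9.16, SE 0.21). IL23A, the p19 subunit of IL-23, was much the more abundant, with a mean of 11.03 TPM without and 1776 TPM with LPS (7.61, SE 0.15, adjusted p = 6.42e-14). IL12A, the p35 subunit of IL-12, was at 0.535 and 0.434 TPM and was not called (adjusted p = 0.988). EBI3, the partner chain of IL-27 and IL-35, rose to a mean of 227.6 TPM (7.33, SE 0.20). IL23A, IL12A and EBI3 were picked out once their values were known. IL6 itself stayed low: 2 counts in the basal libraries and 15.8, 7.51 and 10.7 TPM with LPS, a ratio of 241.0 with a 95% counting interval of 66.3 to 2000.0. IL7 had 0 counts and then 177, at least 70.3-fold higher. IL10, which restrains monocytes, had 3 counts and then 38, a ratio of 15.1 (95% counting interval 4.79 to 76.4).

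The TNF superfamily ligands were mixed, with 7 of 15 higher and 4 lower (median 0.22). TNF (ENSG00000232810, chr6:31575567-31578336) went from 31.5, 23.6 and 41.5 TPM to 2133, 1813 and 2013 TPM (6.22, SE 0.22, adjusted p = 8.95e-10). TNFSF15 rose by 5.31 (SE 0.25) and TNFSF18, at 0 counts in the basal state, was at least 42.1-fold higher. TNFSF14 (LIGHT) fell from 33.3, 29.1 and 28.1 TPM to 5.26, 5.35 and 5.29 TPM (−2.23, SE 0.13). TNFSF11 (RANKL), at 1.80 to 2.62 TPM, fell by 2.28 on the log2 scale, and TNFSF13B (BAFF) by 1.13.

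At the top of the pathway, the LPS receptor itself moved little. Of 12 receptor and partner genes tested, 3 rose and 2 fell (median −0.05), where 35.0% of all genes tested were called. TLR4 was at 16.5, 10.7 and 14.3 TPM without and 14.9, 11.7 and 12.3 TPM with LPS (log2 fold change 0.19, SE 0.18, adjusted p = 0.48), and its sign turned with library-size scaling (−0.06). LY96 was at 1.86 to 6.33 TPM and 3.20 to 3.53 TPM (−0.12, SE 0.47). CD14 was at 50.1, 30.4 and 41.5 TPM and then 33.9, 18.0 and 23.8 TPM (−0.41, SE 0.30, adjusted p = 0.342). With the replicate number as a block CD14 was called (−0.42, adjusted p = 0.0031): replicate 1 was the highest of each group and replicate 2 the lowest. It was also called with library-size scaling (−0.66, adjusted p = 0.048) and without LPS replicate 1 (−0.73, adjusted p = 0.0267). Other receptors changed more. TLR2, which senses lipopeptides, rose from a mean of 83.7 TPM to 267 to 281 TPM (2.00, SE 0.10). TLR7, an endosomal sensor of RNA, rose from 0.651 to 0.698 TPM to 19.9, 26.9 and 26.2 TPM (5.43, SE 0.16), and TLR8 by 1.54. CD180, which forms a TLR4-like complex with LY86, fell from 3.59 to 4.71 TPM to 0.473 to 0.743 TPM (−2.42, SE 0.25), and TLR6 fell by 0.82.

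Of 22 adaptors and proximal kinases tested, 9 rose and 3 fell (median 0.19). The kinases IRAK2, from 5.13 to 5.51 TPM to 256.3 to 276 TPM (5.92, SE 0.13), and MAP3K8, which feeds the ERK pathway (5.21, SE 0.15), rose most, and the TRIF gene TICAM1 rose by 2.50 (SE 0.12). MYD88 rose by 0.47 (SE 0.11). The MyD88 bridging adaptor TIRAP (−1.10, SE 0.15), TAB1 (−0.97, SE 0.13) and the transcription factor IRF5 (−1.55, SE 0.11) were the 3 that fell. IRF5 went from 122.3, 132 and 104.8 TPM to 34.6, 32.4 and 33.8 TPM.

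Of the 5 NF-κB subunits, 4 rose (median 4.10). NFKB2 went from 22.9 to 25.2 TPM to 565 to 610 TPM (4.91, SE 0.11), RELB rose by 4.28 (SE 0.11), NFKB1 by 4.10 (SE 0.13) and REL by 3.75 (SE 0.14). RELA, the transactivating subunit of the classical dimer, was at 73.5, 75.4 and 70.7 TPM and then 71.9, 71.1 and 71.0 TPM (0.24, SE 0.09, adjusted p = 0.052). RELA lay near the threshold. It was called in the same direction by DESeq2 (adjusted p = 0.0464), with RLE size factors (0.0403), with a minimum of 1 CPM (0.0312), with the filter set within these libraries (0.0428), in 1 fit to all 36 libraries (0.038) and with the replicate number as a block (0.0208), and with library-size scaling its sign turned (−0.0035). The summed level of the 5 genes was 165.4 to 172.4 TPM without and 1673 to 1732 TPM with LPS.

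The brakes of NF-κB rose with it. Of 16 inhibitors and brakes tested, 14 rose and 0 fell (median 2.64). NFKBIA (ENSG00000100906, chr14:35401511-35404749), the IκB that holds NF-κB in the cytoplasm, went from 99.1, 96.6 and 100.2 TPM to 1809, 1677 and 1600 TPM (4.39, SE 0.12, adjusted p = 9.39e-13). TNFAIP3 (A20), a ubiquitin-editing enzyme that ends signalling, went from 24.9, 16.9 and 18.9 TPM to 1237, 998 and 978 TPM (6.01, SE 0.21). NFKBIZ, a nuclear IκB needed for part of the secondary response, went from 3.22, 4.28 and 4.11 TPM to 558, 492 and 430.2 TPM (7.28, SE 0.17). TNIP3, a partner of A20, had 17 counts in all in the basal libraries and 63.8 to 97.2 TPM with LPS (8.47, SE 0.39). Replicate 1 had the highest LPS level in these 4 genes, and no basal library overlapped the LPS libraries.

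Promoters of these feedback genes, and of CCL20 and IL6, were chosen for print because each holds at least 1 κB match in the same window. Not all members of their lists did: a match was found for 4 of 15 NF-κB inhibitors and brakes with a promoter in the table, 3 of 9 CC and CX3C chemokines, 6 of 8 genes of the list that holds IL6 and 13 of 47 canonical targets, beside 9.57% of all promoters. Other lists varied. Matches were found for 9 of 27 interferon-list and 8 of 22 adhesion-list genes. They were found for 0 of 11 IL-1 family genes, 1 of 22 AP-1, EGR and KLF genes and 0 of 13 chemoattractant receptors. The windows of CXCL8, IL1B, TNF and ICAM1, which also rose, hold no exact match to the letters searched. Sites that depart from these letters were not counted. The windows of CXCL8 and ICAM1 each hold a stretch that departs from them at the first base only. In TNFAIP3 there are 2 matches with 2 bases between them.
NFKBIA (chr14:35404750-35404999, − strand, first κB base at −81): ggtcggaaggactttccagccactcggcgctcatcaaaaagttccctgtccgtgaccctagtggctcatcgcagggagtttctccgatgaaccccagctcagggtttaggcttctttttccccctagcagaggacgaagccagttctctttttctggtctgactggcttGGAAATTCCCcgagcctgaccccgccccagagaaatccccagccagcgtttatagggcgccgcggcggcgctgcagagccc
TNFAIP3 (chr6:137867009-137867258, + strand, first κB bases at −67 and −55): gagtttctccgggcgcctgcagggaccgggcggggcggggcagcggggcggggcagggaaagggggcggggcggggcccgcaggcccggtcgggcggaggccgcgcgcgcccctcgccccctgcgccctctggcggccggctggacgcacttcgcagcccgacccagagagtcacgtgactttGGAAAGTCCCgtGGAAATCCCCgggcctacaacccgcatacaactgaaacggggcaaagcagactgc
NFKBIZ (chr3:101827740-101827989, + strand, first κB base at −223): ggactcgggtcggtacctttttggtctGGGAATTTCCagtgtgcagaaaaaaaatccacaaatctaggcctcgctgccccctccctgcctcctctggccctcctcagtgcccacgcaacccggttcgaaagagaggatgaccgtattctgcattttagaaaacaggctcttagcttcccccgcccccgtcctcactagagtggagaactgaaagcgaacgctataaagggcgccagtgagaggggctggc
CCL20 (chr2:227813592-227813841, + strand, first κB base at −79): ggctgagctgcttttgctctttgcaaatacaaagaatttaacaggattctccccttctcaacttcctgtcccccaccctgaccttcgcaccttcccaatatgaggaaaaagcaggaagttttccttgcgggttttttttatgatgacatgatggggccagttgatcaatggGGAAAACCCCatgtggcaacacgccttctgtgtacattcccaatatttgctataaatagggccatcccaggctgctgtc
IL6 (chr7:22726950-22727199, + strand, first κB base at −73): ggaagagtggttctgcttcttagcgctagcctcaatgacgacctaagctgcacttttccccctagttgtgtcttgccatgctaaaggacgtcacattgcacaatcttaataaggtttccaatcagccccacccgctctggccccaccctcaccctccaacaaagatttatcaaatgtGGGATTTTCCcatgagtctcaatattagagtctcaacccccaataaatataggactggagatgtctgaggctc

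Among 28 AP-1, EGR and KLF early-response genes, 20 rose and 4 fell (median 1.36). EGR2 went from 0.664 to 1.29 TPM to 120 to 139.3 TPM (7.33, SE 0.17), IER3 rose by 7.07 (SE 0.26), EGR3 by 5.45 and EGR1 by 3.09. JUNB, at 70.1 to 100.6 TPM in the basal state, rose to 450 to 523 TPM (2.88, SE 0.12). FOS, which peaks within the first hour in many cell types, was at 45.1 to 48.4 TPM without and 29.9, 33.7 and 47.9 TPM with LPS (−0.06, SE 0.14, adjusted p = 0.778), and its sign turned without LPS replicate 1 (0.03) or LPS replicate 2 (0.03). The members that fell were MYC, from 251, 267 and 237 TPM to 55.5, 41.3 and 53.5 TPM (−2.04, SE 0.13), KLF4 (−1.20, SE 0.16), FOSL2 (−0.97, SE 0.12) and BATF (−0.69).

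All 3 NR4A receptors rose in spite of the hairpin. NR4A2 itself went from 1.07, 1.09 and 1.39 TPM to 13.4, 16.5 and 15.96 TPM (3.95, SE 0.17, adjusted p = 1.02e-10). NR4A3 went from 0.512, 0.209 and 0.566 TPM to 43.9, 62.7 and 48.2 TPM (7.14, SE 0.22, adjusted p = 9.63e-12), and NR4A1 from 4.43, 6.14 and 4.88 TPM to 11.26, 15.8 and 15.96 TPM (1.76, SE 0.14). With LPS, NR4A3 was therefore the most abundant of the family in these cells. In shNT cells at 10% CO2 with LPS the order was reversed: NR4A2 was at 43.97, 46.9 and 51.55 TPM and NR4A3 at 30.65, 32.7 and 38.6 TPM. With LPS, NR4A3 was higher in shNR4A2 than in shNT cells at 10% CO2 (log2 difference 0.57, SE 0.14, adjusted p = 0.00699). NR4A1 was not called against shNT cells in either state.

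Other negative regulators were called as well. Of 10 dual-specificity phosphatases, which inactivate MAP kinases, 6 rose and 1 fell (median 0.93). DUSP8 rose by 4.28 (SE 0.13), DUSP1 by 3.72 (SE 0.17) and DUSP16 by 3.32 (SE 0.16), and DUSP7 fell by 1.28. Of 18 factors of cytokine mRNA decay, 7 rose and 2 fell (median 0.08), where 35.0% of all genes tested were called. BTG2, which recruits the deadenylase complex, rose from 40.4 to 45.8 TPM to 2127 to 2486 TPM (6.04, SE 0.14), and the endonuclease gene ZC3H12A (Regnase-1) from 11.28 to 19.7 TPM to 609 to 656 TPM (5.74, SE 0.17). ZFP36 (tristetraprolin), already at 141 to 165 TPM, rose by 0.77 (SE 0.10). Its paralog ZFP36L2 fell from 460 to 505 TPM to 116 to 133 TPM (−1.66, SE 0.10). Of 20 SOCS and JAK-STAT genes, 9 rose and 4 fell (median 0.20): SOCS3 rose by 5.93 (SE 0.17), STAT4 by 3.83 and PIM1 by 2.98, while CISH fell by 2.79 (SE 0.23) and SOCS2 by 0.81.

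Interferon-induced genes rose in part. Of 38 tested, 16 were higher and 2 lower (median 0.56), where 35.0% of all genes tested were called. IFNB1 had 0 counts in the basal state and 29 with LPS, at least 11.5-fold higher. GBP2 rose by 4.31 (SE 0.16), GBP1 by 3.15, IFIT2 by 2.63 (SE 0.27) and IFIT1 by 1.64 (SE 0.33). ISG15 was at 48.5, 124 and 108.5 TPM without and 81.3, 207 and 204 TPM with LPS. Replicate 1 was low in both groups, so the groups overlapped and the gene was not called (1.08, SE 0.48, adjusted p = 0.158). With the replicate number as a block its change was 1.08 with an adjusted p of 1.04e-09, and without LPS replicate 1 it was 1.37 with an adjusted p of 0.0337. TRIM21 and IRF2 were the members that fell, by 0.55 and 0.57.

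Inflammasome genes did not move as 1 group. Of 21 sensors, caspases and gasdermins tested, 7 rose and 9 fell (median −0.31). NLRP3, the sensor that LPS is known to prime in macrophages, was at 91.3, 93.2 and 70.4 TPM without and 57.4, 42.8 and 43.7 TPM with LPS (−0.53, SE 0.16, adjusted p = 0.0195). It lost its call without LPS replicate 2 (−0.43), without LPS replicate 3 (−0.45), without basal replicate 2 (−0.50) and at an adjusted p threshold of 0.01. NLRC4 fell from 4.78 to 7.86 TPM to 0.581 to 0.999 TPM (−2.55, SE 0.30), NOD1 by 1.60 (SE 0.15) and NLRP12 by 1.49 (adjusted p = 0.0429). CASP5 (2.99), the kinase gene RIPK2 (2.91, SE 0.12) and NINJ1, which ruptures the membrane of dying cells, from 108 to 153 TPM to 632 to 675 TPM (2.65, SE 0.15), rose. CASP1 was not called. Among 23 apoptosis regulators, 13 rose and 3 fell (median 0.92). Those that rose most were survival genes of the NF-κB response: BIRC3 (5.88, SE 0.15), BCL2A1, from 9.84 to 11.5 TPM to 442 to 541 TPM (5.79, SE 0.15), and CFLAR (2.66, SE 0.11). The 3 that fell, TNFRSF10A (−1.24), MLKL (−1.09) and BAK1 (−0.77), act in cell death.

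Of 20 genes of the prostaglandin and leukotriene pathway, 7 rose and 1 fell (median 0.35), where 35.0% of all genes tested were called. PTGS2 (COX-2) went from 1.53, 1.97 and 1.72 TPM to 109.5, 74.4 and 65.9 TPM (5.87, SE 0.26), and the prostaglandin receptor PTGER2 rose by 4.55. Of 32 adhesion, co-stimulation and antigen presentation genes, 19 rose and 3 fell (median 0.50). ICAM1 went from 4.78 to 6.43 TPM to 413 to 473 TPM (6.65, SE 0.16) and CD83, a maturation marker, from 13.4 to 15.9 TPM to 687 to 815 TPM (5.96, SE 0.13). VCAM1 had 0 counts and then 151, at least 59.9-fold higher. The selectin ligand SELPLG (−1.58, SE 0.14), CD86 (−0.69, SE 0.24) and the integrin ITGA4 (−0.68, SE 0.11) fell.

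Of 31 metabolic and redox genes tested, 15 rose and 2 fell (median 0.44). ACOD1, which makes itaconate, had 2 counts in the basal libraries and 26.6, 17.2 and 21.4 TPM with LPS, a ratio of 486 (95% counting interval 134 to 4020). The lysosomal hexose transporter gene SLC2A6 rose from 9.53 to 11.97 TPM to 511 to 537 TPM (5.92, SE 0.12), while the main glucose transporter SLC2A1 fell from 291 to 325 TPM to 126 to 142 TPM (−0.91, SE 0.09) and HK2 by 0.62. GCH1, the first enzyme of tetrahydrobiopterin synthesis, rose by 5.41 (SE 0.13). The ferritin heavy chain FTH1 rose from 1304, 1007 and 1436 TPM to 6604, 6379 and 6133 TPM (2.63, SE 0.15) and the light chain FTL by 0.80 (SE 0.10).

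Of 20 genes of coagulation, matrix proteases and serpins, 13 rose and 3 fell (median 0.81). TNFAIP6, a hyaluronan-binding protein, went from 1.66, 0.835 and 1.13 TPM to 1311, 1334 and 1119 TPM (10.30, SE 0.20, adjusted p = 6.42e-14). F3, tissue factor, rose from 93.4 to 123 TPM to 195 to 223.5 TPM (1.20, SE 0.12). Thrombomodulin (THBD), which turns thrombin to an anticoagulant role, fell from 416, 369 and 338 TPM to 84.3, 48.0 and 50.8 TPM (−2.32, SE 0.27). The plasminogen activator inhibitor SERPINB2 fell by 2.31 (SE 0.17). PTX3, a secreted pattern recognition protein outside the list, went from 33.6, 35.8 and 31.4 TPM to 3158, 3007 and 2781 TPM (6.76, SE 0.14).

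Among 35 monocyte and haematopoietic transcription factors, 14 rose and 16 fell (median −0.14). CEBPA (ENSG00000245848, chr19:33299934-33302564), a master factor of myeloid differentiation, went from 914, 855 and 831 TPM to 114, 105.6 and 116 TPM (−2.67, SE 0.11, adjusted p = 7.49e-11). GFI1, a repressor of granulocyte and monocyte choice, went from 328, 423 and 309.5 TPM to 27.6, 32.2 and 34.9 TPM (−3.20, SE 0.12). HHEX fell by 2.79 (SE 0.16), and NFE2, outside the list, by 3.31 (SE 0.19). SPI1 (PU.1) rose, from 580 to 713 TPM to 826 to 912 TPM (0.68, SE 0.11). HIVEP1 (4.27), BCL6 (3.98) and HIVEP2 (3.47) rose most. Signalling receptors of resting monocytes were split likewise, 12 of 22 higher and 7 lower (median 0.50). The adenosine receptor ADORA2A rose by 6.25 (SE 0.36) and the hydroxycarboxylic acid receptors HCAR3 and HCAR2 by 4.47 and 4.27. RARA fell by 2.50 (SE 0.14), P2RY2 by 2.38 (SE 0.13) and RGS14, a regulator of G protein signalling, by 2.21. ADORA2A overlaps its antisense gene, which moved with it (6.20), and, with the strand setting of the counting not given in the sources used here, the reads of these 2 genes cannot be told apart.

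The medians of the housekeeping lists were small, but many members of the cell cycle and heat shock lists were called. Of 36 cell cycle genes, 9 rose and 10 fell (median −0.06), where 35.0% of all genes tested were called. AURKA (−0.94), PLK1 (−0.92) and CDC20 (−0.82) fell, and CDK6 (1.56) and the stress kinases PLK3 (2.57) and PLK2 (2.14) rose. With library-size scaling these counts were 8 higher and 18 lower. Of 20 heat shock proteins and co-chaperones, 12 rose and 0 fell (median 0.42), where 16.5% of all genes were called higher, with DNAJA1 at 1.17 (SE 0.11) and DNAJB6 at 1.06 the largest, and with library-size scaling 6 rose and 1 fell. Of 13 mitochondrially encoded genes 1, MT-ND3, was called (0.35, SE 0.10), and none with library-size scaling. The mitochondrial share of counts was 2.09% to 3.00% in basal and 2.05% to 2.88% in LPS libraries.

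Noncoding host genes are shown with the microRNAs they carry. Of 21 noncoding genes tested, 12 rose and 1 fell (median 0.97). MIR3142HG (ENSG00000253522, chr5:160468268-160487426, + strand), which carries miR-146a, was at 0.176, 0.246 and 0.130 TPM without and 167, 167 and 150 TPM with LPS (10.02, SE 0.20, adjusted p = 6.7e-14). MIR155HG (ENSG00000234883, chr21:25561909-25575168, + strand) went from 21.0, 14.4 and 21.1 TPM to 385, 294 and 269.5 TPM (4.35, SE 0.23). MIR222HG rose from a mean of 2.89 TPM to 12.95 TPM (2.44, SE 0.21). MIR223HG, host of the myeloid miR-223, was the member that fell, from 49.2, 69.3 and 58.8 TPM to 27.6, 25.6 and 28.8 TPM (−0.82, SE 0.12). Polyadenylated host transcripts were counted here, not the mature microRNAs, and miR-146a is known for targeting IRAK and TRAF transcripts of the TLR pathway. The mature sequences (RefSeq, GRCh38.p14) follow, with the seed, bases 2 to 8, in capitals. miR-221-3p and miR-222-3p share 1 seed, and the other seeds differ.
hsa-miR-146a-5p (chr5:160485372-160485393, + strand): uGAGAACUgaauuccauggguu
hsa-miR-155-5p (chr21:25573983-25574006, + strand): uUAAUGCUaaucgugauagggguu
hsa-miR-221-3p (chrX:45746180-45746202, − strand): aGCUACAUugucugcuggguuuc
hsa-miR-222-3p (chrX:45747036-45747056, − strand): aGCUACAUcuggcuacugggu
hsa-miR-223-3p (chrX:66018937-66018958, + strand): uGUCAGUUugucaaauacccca

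Some genes with large changes are less familiar in this setting. SHROOM3, an actin-binding protein of epithelial shape, had 20 counts in the basal libraries and 63.8, 58.2 and 55.2 TPM with LPS (9.62, SE 0.21). SLC1A2, a glutamate transporter best known from astrocytes, had 1 count and then 658, a ratio of 784 (95% counting interval 140.0 to 31000.0). It lies 18804 bases from CD44, on the opposite strand, and CD44 rose by 2.37. The unnamed gene ENSG00000279835 (chr20:51098138-51098845) had 0 counts and then 425, at least 169-fold higher. At the other end, CASS4, an adhesion scaffold (−4.26, SE 0.31), INKA1 (−3.65, SE 0.32), IL16 (−3.42, SE 0.21), PDK4, which restrains pyruvate use (−3.08, SE 0.34), DLX3 (−3.04), C16orf54 (−3.03) and FAM124B (−3.00) fell.

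The genes that rose most differed from all genes tested in structure and in basal level. The 299 genes called and at least 16-fold higher had a median span of 17210 bases and a median of 6 exon blocks, against 32020 bases and 11 blocks over all genes tested. Of them, 22.1% were annotated as lncRNA, against 13.1% of all genes. Their median basal level was 0.347 TPM, against 16.5 TPM over all genes tested. A fold of that size favours a low basal level, so these features cannot be told apart from the level. Genes at least 2-fold lower were also short (18270 bases, 6 blocks), with 13.5% lncRNA. The 983 genes 2-fold to 16-fold higher were not short (36770 bases, 9 blocks), with 20.2% lncRNA. Strongly induced genes lay next to each other: the nearest tested gene was itself called and at least 2-fold higher for 54.8% of the 299, against 6.77% for all genes. Of the 299, 29.4% overlapped their neighbour, against 42.3% of all genes tested, and without strand such pairs can share reads. CCL3 and CCL4, for example, lie 13421 bases apart on opposite strands, and CXCL10 and CXCL11 10185 bases apart on the same strand, both of the latter rising (9.55 and 7.10).

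The response was next set beside that of the same cells at 5% CO2. Across genes, the log2 fold changes at 10% and 5% CO2 had a Pearson r of 0.90 (17720 genes of the same 12 libraries, which are not independent replicates). In the fit of these 12 libraries 2250 genes were called and at least 2-fold changed at 10% CO2, of which 2224 had the same sign at 5%. No gene passed the test of the difference itself (0 called, 0.0%, by edgeR's quasi-likelihood interaction test). At an unadjusted p under 0.05 there were 904 genes, and DESeq2 called 13. The count depended on 1 library: without replicate 3 of 5% CO2 + LPS, 24 genes were called. Within the NR4A family the difference was largest in NR4A3 (log2 difference 1.69, SE 0.38, adjusted p = 0.542): 7.13 at 10% and 5.44 at 5% CO2. Basal NR4A3 was low, at 0.707, 0.694 and 1.41 TPM at 5% CO2 and 0.512, 0.209 and 0.566 TPM at 10%. With LPS it was at 33.0, 32.8 and 36.1 TPM at 5% and 43.9, 62.7 and 48.2 TPM at 10%. The low basal values thus made up part of this difference. In TNF the difference was 1.07 (SE 0.30, adjusted p = 0.876), in CXCL8 0.62 (SE 0.35) and in IL1B −0.03 (SE 0.34).

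The sizes of the responses were compared over genes picked in libraries that belong to neither side, the shNT cells at 5% CO2. This choice was made after the values were seen. Of 831 genes called and at least 2-fold higher there, the median log2 fold change in shNR4A2 cells was 2.98 at 10% and 2.54 at 5% CO2, and 75.9% had the larger value at 10% CO2 (69.8% to 81.1% with any 1 library left out). Of 504 genes lower there, the medians were −1.47 and −1.30, and 63.7% were further down at 10% CO2 (58.1% to 69.0%). These shares are descriptions over genes and carry no test.

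**Figure D4:**
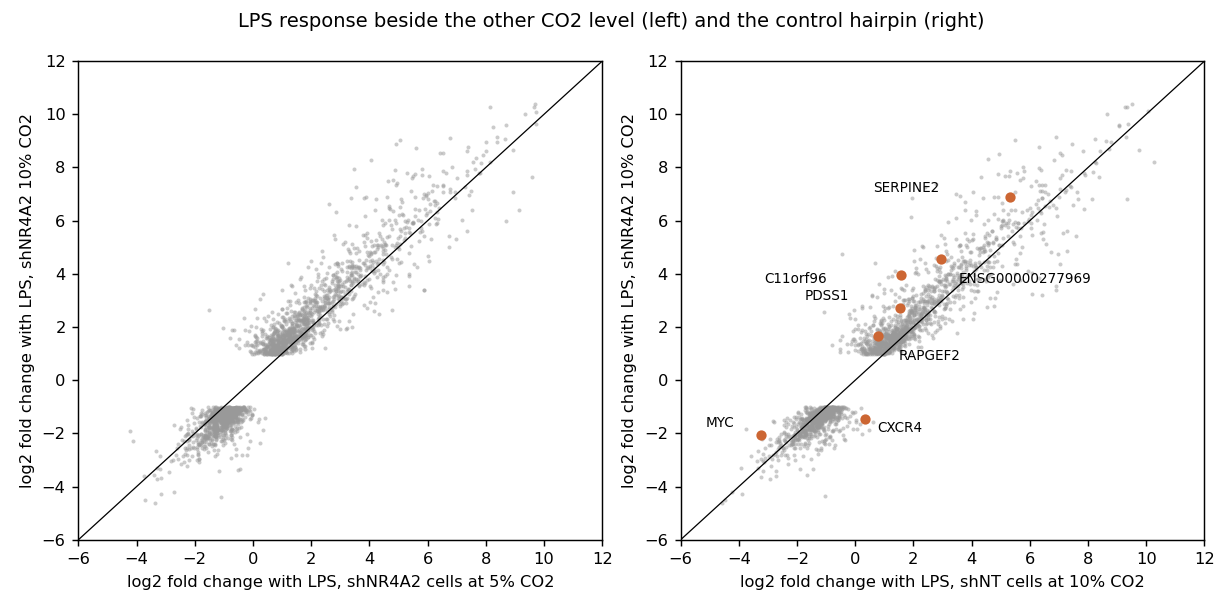
Each point is 1 gene called and at least 2-fold changed with LPS in shNR4A2 cells at 10% CO2; its log2 fold change there (vertical axis) is plotted against that in shNR4A2 cells at 5% CO2 (left) and in shNT cells at 10% CO2 (right), and the line marks equal changes. The genes were chosen by the vertical axis, which favours points above the line; orange points on the right are 7 of the 8 genes whose response differed between the lines.

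Against shNT cells at the same CO2 the response differed in 8 genes (0.0451% of those tested). The number depended on the method: DESeq2 called 50, the fit with the replicate number as a block 74, and leaving out 1 library gave 5 (without shNT 10% CO2 + LPS replicate 3) to 16 (without shNR4A2 10% CO2 replicate 2). Pearson's r across genes was 0.90, and 2242 of 2277 genes had the same sign. CXCR4, the receptor for CXCL12, had the largest contrast in sign. It stood at 56.2, 51.4 and 38.9 TPM in basal shNR4A2 cells and 16.9, 13.8 and 13.1 TPM with LPS. In shNT cells it was at 29.9, 27.2 and 26.4 TPM and then 29.9, 26.0 and 32.0 TPM. With LPS it fell by 1.46 on the log2 scale in shNR4A2 cells, against a change of 0.34 in shNT cells (difference −1.81, SE 0.21, adjusted p = 0.000721). SERPINE2, an inhibitor of serine proteases, reached 258, 299.6 and 281 TPM in shNR4A2 cells and 74.9, 89.9 and 79.8 TPM in shNT cells from basal levels of 2.44 to 3.55 and 2.37 to 2.58 TPM (difference 1.55, SE 0.19, adjusted p = 0.000721). PDSS1, an enzyme of coenzyme Q synthesis, reached 209.7, 200.3 and 179 TPM against 116, 113 and 111 TPM (1.17, SE 0.16, adjusted p = 0.00231). In these 3 genes the LPS libraries of the lines did not overlap.

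MYC fell in both lines, by 2.05 in shNR4A2 and by 3.23 in shNT cells (difference 1.18, SE 0.16, adjusted p = 0.00326). Its basal level was lower in shNR4A2 cells, 237 to 267 TPM against 364 to 444 TPM, and its LPS level was higher, 41.3 to 55.5 TPM against 31.7 to 38.2 TPM. The lncRNA gene ENSG00000277969 rose by 4.56 against 2.96 (difference 1.60, SE 0.26, adjusted p = 0.0187). RAPGEF2 (difference 0.90, SE 0.16, adjusted p = 0.0406) and C11orf96 (2.35, SE 0.42, adjusted p = 0.0416) also passed and were picked out once their values were known. The difference in NR4A2 induction itself (3.94 against 4.60) was not called. At 5% CO2 in shNR4A2 cells, CXCR4 with LPS was at 24.99, 27.3 and 13.9 TPM and SERPINE2 at 150, 68.5 and 216 TPM, a spread wider than at 10% CO2. Over the 831 genes described above, the median was 2.99 in shNR4A2 and 2.65 in shNT cells at 10% CO2. Of these, 69.7% were larger in shNR4A2 cells (65.5% to 71.5% with any 1 library left out). Over the 504 lower genes the medians were −1.46 and −1.41, and 55.2% were further down (51.0% to 64.1%).

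**Figure D5:**
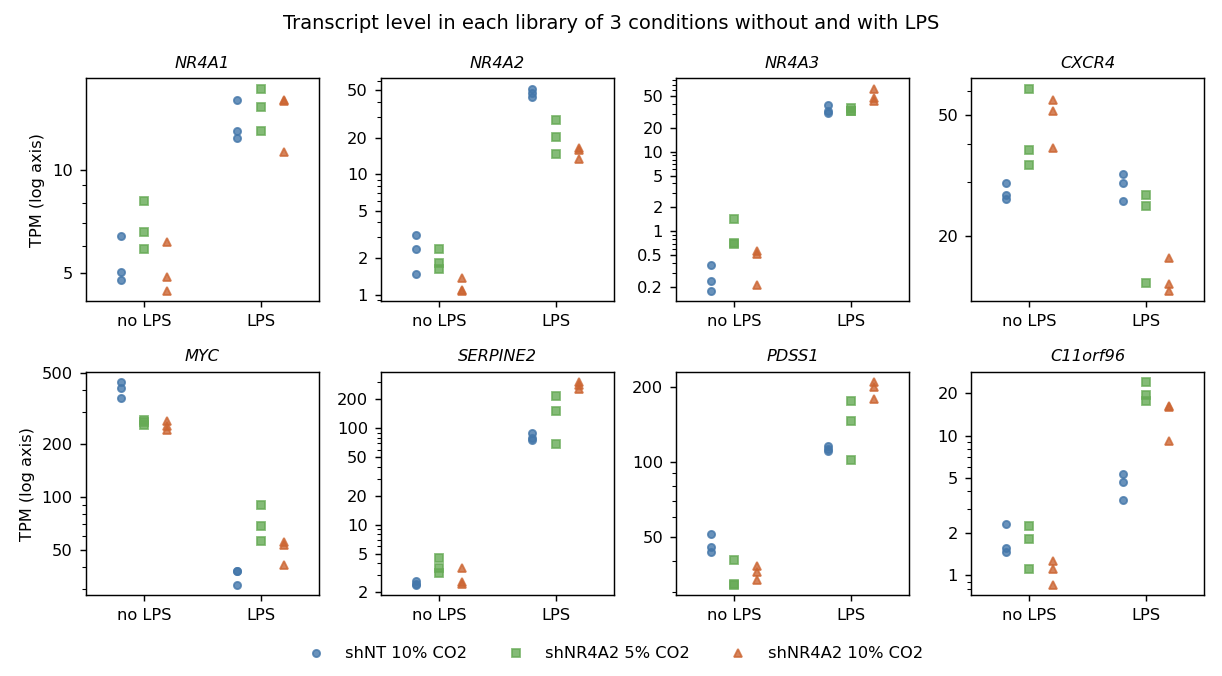
TPM on a log axis in each of 18 libraries for the 3 NR4A receptors and 5 genes whose LPS response differed between shNR4A2 and shNT cells at 10% CO2; circles are shNT at 10% CO2, squares shNR4A2 at 5% and triangles shNR4A2 at 10% CO2. NR4A2 with LPS is highest in the shNT libraries, while SERPINE2, PDSS1 and C11orf96 with LPS are lowest in shNT cells on average, and CXCR4 with LPS is higher in the shNT libraries than in those of shNR4A2 cells at 10% CO2.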

How the data were processed

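Polyadenylated RNA was sequenced in 36 libraries of 12 conditions (3 each), grouped by their labels; every library here had 1 table of whole-number counts per gene. Per the labels and the study's methods, the authors used Trimmomatic 0.36 for trimming and STAR 2.5.2b for alignment (GRCh38) and deposited counts of uniquely placed reads from featureCounts (Subread 1.5.2); the annotation release and strand setting are not given in the sources used here. TPM were computed from these counts and the gene lengths in the same tables; gene symbols were matched by identifier for 56410 of 57500 rows. In R 4.3.3, genes were kept with filterByExpr over all libraries, scaled by TMM and tested with edgeR 4.0.16 (limma 3.58.1; quasi-likelihood, robust, Benjamini-Hochberg adjustment) in the libraries of each comparison, with an interaction term for differences between responses. The code was tested on simulated data with few changed genes, a narrower setting than the broad response here. DESeq2 1.42.0, other scalings and filters, 1 fit to all libraries, a stricter threshold and leaving out each library were alternatives.

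Counting intervals (exact, 95%) and floors (3 counts over a group) cover counting error only. The replicate numbers, taken from the labels, paired the 6 libraries in part: deviations of same-numbered libraries correlated at 0.627, 0.261 and 0.162. Basal replicate 2 correlated best with LPS replicate 3. The main test did not use the replicate number, and the fit with it as a block was an alternative. The members and gene lists were chosen with earlier results of these data known. The genes named were the NR4A receptors, a list of canonical LPS targets and up to 3 called members in each direction of each list. Named as well were the 10 largest changes in each direction among called, non-overlapping genes of at least 5 CPM. The rule also took the 5 largest gains and losses of TPM among called genes, and up to 5 genes in each direction of each interaction. BATF, CASP1, CTSG, CXCL11, EBI3, IL12A, IL1RN, IL23A, MIR222HG, MPO, PECAM1, RAPGEF2 and C11orf96 were named outside this rule, after their values were seen. Some genes that the rule names are not reported here.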

Additional observations from a re-analysis of the deposited data

Results flagged for a closer look

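The LPS response differed between shNR4A2 and shNT cells at 10% CO2 in 8 genes by edgeR's quasi-likelihood interaction test. As the response of shNR4A2 cells minus that of shNT cells on the log2 scale, CXCR4 stood at −1.81 and was below 0. Above 0 were C11orf96 at 2.35, ENSG00000277969 at 1.60, SERPINE2 at 1.55, MYC at 1.18, PDSS1 at 1.17 and RAPGEF2 at 0.90. Before LPS, CXCR4 was at 172% of the shNT level (adjusted p = 0.00133), MYC at 60.9% (adjusted p = 0.000344) and PDSS1 at 75.6% (adjusted p = 0.0292). With 1 line for each hairpin, an effect of the hairpin's target and a difference between the lines cannot be told apart.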

How the results depend on the processing

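Of 2817 values of the 189 named genes under the alternatives, 2761 kept direction and call, 39 lost the call, 12 gained it and 5 changed sign. The sign changes were in genes not called: FOS (−0.2712 to 0.0323 with 1 library left out, above 0 without LPS replicate 1 or 2), LY96 (−0.4895 to 0.2376, above 0 without basal replicate 1), RELA (−0.0035) and TLR4 (−0.0617), the last pair with library size only. That scaling gave 1731 higher and 5997 lower genes, and 1662 at least 2-fold lower. Leaving out 1 library gave 2381 to 2796 higher and 2535 to 3135 lower genes, 1197 to 1303 and 850 to 996 with the 2-fold limit, and 340 to 358 list members called. NR4A2 against shNT ranged from −1.22 to −0.74 without and −1.71 to −1.61 with LPS. The replicate block gave 3584 higher and 3904 lower genes and, of the named genes, changed the calls of CD14, ISG15 and RELA and no other.

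For the difference between 10% and 5% CO2 (0 genes), DESeq2 called 13, no filter 71, 1 fit to all libraries 1 and the replicate block 4, and leaving out 1 library gave 0 to 24. For the difference between shNR4A2 and shNT cells (8 genes), DESeq2 called 50, a minimum of 1 CPM 13, no filter 63, 1 fit to all libraries 3, the replicate block 74 and an adjusted p threshold of 0.01 5, and leaving out 1 library gave 5 (without shNT 10% CO2 + LPS replicate 3) to 16 (without shNR4A2 10% CO2 replicate 2). The cause was not tested. In these 12-library sets pairing by number was not established: same-numbered libraries correlated above 0.1 in 5 of 6 pairs of groups with shNT (not between the basal groups, at 0.401, 0.078 and −0.237) and in 4 of 6 with 5% CO2. Genes with few counts were limited by depth.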
